A study of Mus musculus with 12 samples.

Results

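The SCAN-domain zinc finger genes described here were the 30 genes, of 20409 in the deposited gene tables, whose names begin with Zscan or Zkscan. They comprised 11 Zkscan genes and 19 Zscan genes, 8 of which formed the Zscan4 cluster of near-identical copies. Each was followed through 3 ORFtag screens in mouse embryonic stem cells. In ORFtag, a retroviral cassette with its own promoter, a resistance gene and a protein tag inserts at many places in the genome, and a splice donor joins the tag to an exon of the next gene downstream, so that the cell can make a tagged form of that protein if the reading frames match. Cassettes for the 3 reading frames were mixed in equal parts. Insertions were counted here whatever their frame, so the counts include those out of frame. Because the 3 cassettes were used in equal parts, these can be the larger part, and their share was not measured. Retroviral positions were mapped in cells sorted by a GFP reporter and in unsorted cells, with 2 libraries per group and 12 in all.

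All libraries were labelled wild type and came from AN3-12, a line of diploid stem cells that began as the haploid line HMSc2, and each reporter line was a single clone. In the activator screen the tag was TetR with a nuclear localization signal, the silent reporter sat behind TetO sites and the MYLPF promoter in an expression-stable locus on chromosome 15, and GFP-positive cells were sorted. In the repressor screen the tag was the same, the reporter in that locus was driven by the PGK promoter beside TetO sites, and cells that had lost GFP were sorted. The third screen was for post-transcriptional gene regulators (PTGR). Its tag was LambdaN, and the reporter carried BoxB sites in its transcript, was driven by the PGK promoter and was integrated at random in a line with CreERT2, and cells low in GFP were sorted and then selected again after removal of the BoxB sites. Unsorted cells of each screen had been through the selection for the cassette but not the sort. These are positions in genomic DNA and hold no expression, so the identity of the cells was not checked by marker genes.

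The SCAN domain is a leucine-rich region through which these proteins form dimers with one another, and it is followed towards the carboxyl terminus by an array of C2H2 zinc fingers that can bind DNA. Most Zkscan proteins also carry a KRAB domain, a segment best known for recruiting the corepressor Trim28 in the large family of KRAB zinc finger proteins. In embryonic stem cells, Zscan10 is known as a partner of the pluripotency factors, and the Zscan4 genes are known for brief bursts of expression in rare cells that resemble the 2-cell embryo and for a role in telomere maintenance. The screens asked whether a tagged protein raised or lowered the reporter when brought to it, so a gene was of interest where sorted cells held more insertions than unsorted cells.

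The background of each screen was the sum of all 6 unsorted libraries, so the 3 screens share it. A gene was called where its adjusted p in a one-sided Fisher's exact test was below 0.001 and its log2 odds ratio was at least 1. None of the 30 SCAN-domain zinc finger genes was called in any screen. Only 3, 3 and 13 of them had enough sorted insertions to be tested in the activator, repressor and PTGR screens. Of all genes tested, 4.64%, 8.18% and 0.666% were called in these screens, or 132, 192 and 62 of the 20409 genes. With so few members tested, the absence of calls does not set them apart from other genes. All 10 KRAB corepressor genes on the list used were called in the repressor screen. That list was chosen with earlier results of these data known, so it is not an independent control. The members with the most insertions, Zscan10, Zscan2 and Zkscan17, held fewer insertions in sorted cells than their background predicted in each of the 3 screens, although for Zscan2 this depended on the library totals used. Low sorted values were common among genes with at least 100 background insertions. Both sorted libraries lay below all 6 unsorted ones for 37.5% (activator), 61.8% (repressor) and 12.2% (PTGR) of them. Most other members had few insertions in unsorted cells, so that only large enrichments could have been seen.

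A member was reached where the cassette could be spliced onto one of its exons. Insertions were counted within 200 kb upstream of the assigned exon, and almost all of those at the members were assigned to exon 2: 1565 of 1651 (94.8%) over the 12 libraries, against 83.3% over all genes. The exon assigned most often coincided with an exon start in the GENCODE vM21 annotation for each of the 29 members with insertions, and it was exon 2 for 28 of them. Zkscan5 was the exception, with 26 of 71 insertions at exon 5 and the rest spread over 3 other exons. For each member, the longest coding sequence among the transcripts with the exon start assigned most often was used. It need not be the longest of the gene, and at Zkscan7 it held 849 bases. In 23 of the 29 members all of this sequence lay downstream of that exon start. In the others 68.8% (Zkscan5), 71.0% (Zkscan4), 74.7% (Zkscan14), 76.4% (Zscan25), 86.1% (Zkscan2) and 87.9% (Zscan29) of it did. A protein tagged there would lack its first part, and which domains that part holds was not examined.

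The splice acceptors of the members on which the results turn mark where each fusion begins. Each sequence is taken from the reference genome (GRCm38) in the direction of the gene and holds the last 20 bases of the intron and the first 10 of the exon, with the final AG of the intron in capitals. All 29 windows held AG at that place.
Zscan10 (chr17:23605485-23605514, plus strand): tcttaacgcagtatctttAGctccacaggt
Zscan2 (chr7:80863145-80863174, plus strand): ttctctgccttgtttctcAGcagtgtttct
Zkscan17 (chr11:59505953-59505982, minus strand): gcaatacaattctcttccAGgcgtctccct
Zkscan4 (chr13:21481254-21481283, plus strand): agcaaatgaatgatttttAGgtttcaacgg
Zkscan2 (chr7:123498763-123498792, minus strand): atgttgactttgttttgcAGgtcagtagcc
The copies of the Zscan4 cluster are shown for a different reason, namely that 7 of them shared only 3 distinct windows.
Zscan4c, identical in Zscan4d, Zscan4f and Zscan4-ps2 (chr7:11006439-11006468, plus strand): ttccttttttaaattcacAGcttttacagt
Zscan4e, identical in Zscan4b (chr7:11309935-11309964, minus strand): ttcttttttaaaattcacAGcttttacagt
Zscan4-ps1 (chr7:11068958-11068987, minus strand): ttccttttttaaattcacAGcttttatagt

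In mm10, Zscan10 spans chr17:23600856-23611019, Zscan2 chr7:80860920-80876537, Zkscan17 chr11:59485520-59526751, Zkscan4 chr13:21478907-21485507, Zkscan2 chr7:123475384-123500449 and Zscan4-ps2 chr7:11514310-11519111. The members lay on 8 chromosomes, with 13 on chromosome 7, 5 on chromosome 13 and 5 on chromosome 5. Zscan12, Zkscan3, Zscan26, Zkscan4 and Zkscan8 formed the group on chromosome 13, and Zkscan1, Zscan21, Zkscan14, Zkscan5 and Zscan25 that on chromosome 5. Beside the Zscan4 cluster, chromosome 7 held Zscan5b, Zscan18, Zscan22, Zscan2 and Zkscan2. Zkscan16 and Zscan20 lay on chromosome 4, Zkscan6 and Zkscan17 on chromosome 11, Zscan29 on chromosome 2, Zkscan7 on chromosome 9 and Zscan10 on chromosome 17. The annotation gave all 30 as protein-coding, including the 3 copies whose names mark them as pseudogenes, Zscan4-ps1, Zscan4-ps2 and Zscan4-ps3.

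The depth of the libraries, as insertions within 200 kb of an assigned exon, was between 14705 and 60980 for sorted cells and between 54088 and 233799 for unsorted cells. The 6 unsorted libraries together formed the background of 1022126 insertions. The lists hold positions without read numbers, so each position adds 1 insertion to a library however many cells carried it. Positions a few bases apart were counted apart, and whether they were separate insertions was not tested. Intervals given here cover counting error only. The 2 replicates of each group are stated by the study to be biological.

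In unsorted cells, 29 of the 30 members had at least 1 insertion, while 89.5% of all genes did. The exception was Zscan4-ps3, which had no insertion within 200 kb in the direction of the gene in any of the 12 libraries. With at least 3 insertions required, 27 members were reached. The members held 1465 background insertions with a median of 11 per member, against 15 per gene over all genes. These were concentrated in few genes: Zscan10 with 386, Zscan2 with 314 and Zkscan17 with 233 took 63.7% of them, and with 107 at Zkscan14 the share was 71.0%. Next in order were Zkscan4 with 70, Zkscan5 with 66, Zscan26 with 43, Zscan20 with 40, Zkscan3 with 34, Zkscan16 with 22 and Zscan5b with 20. The other 19 members had 15 or fewer.

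**Figure D1:**
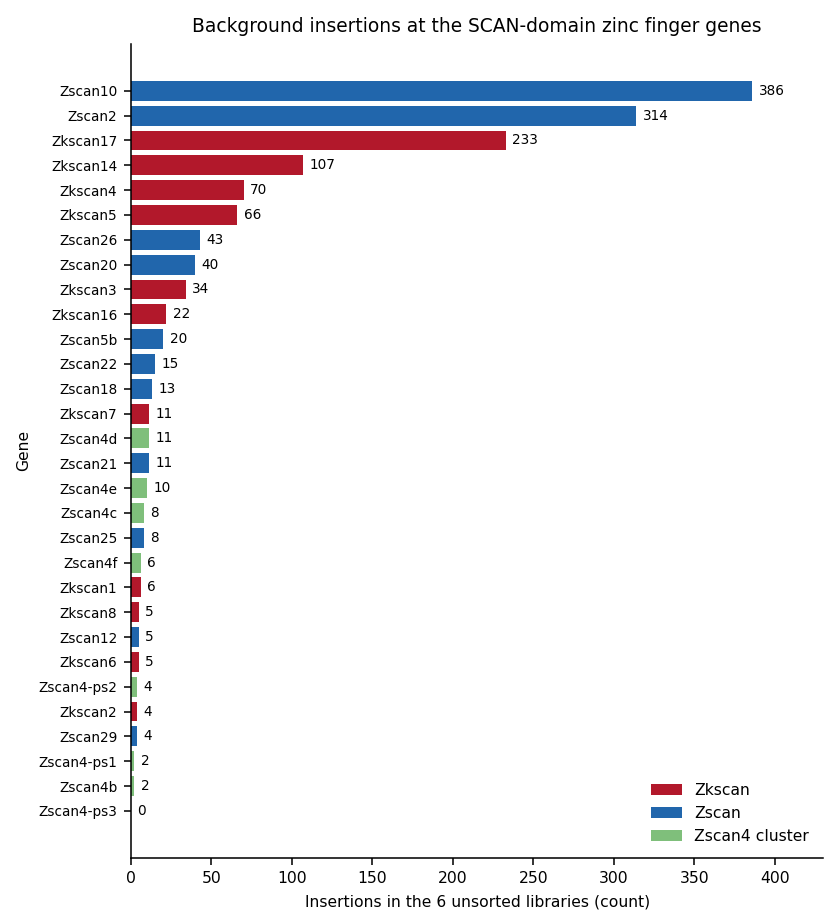
Background insertions at each of the 30 genes, as the count summed over the 6 unsorted libraries (x axis), with Zkscan genes in red, Zscan genes in blue and the Zscan4 cluster in green. Zscan10, Zscan2 and Zkscan17 stand above 200 insertions, and 19 genes have 15 or fewer.

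Among the members with few insertions, Zscan22 had 15 in the background, Zscan18 had 13, and Zscan21 and Zkscan7 had 11 each. Zscan25 had 8, Zkscan1 had 6, Zkscan6, Zscan12 and Zkscan8 had 5 each, and Zkscan2 and Zscan29 had 4 each. None of these 11 genes had more than 6 insertions in any single unsorted library.

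The insertions assigned to the members mostly lay outside them. Of 1651 insertions, 1312 (79.5%) were upstream of the annotated gene and 339 (20.5%) within it, and 680 (41.2%) lay upstream and inside another protein-coding gene. The median distance to the assigned exon was 20.1 kb, against 30.8 kb over all genes, and 29.4% lay within 10 kb, against 28.1%. The 3 genes with the most insertions differed in this respect. At Zscan10, 166 of 422 insertions lay within the gene and the median distance was 5.51 kb. At Zscan2 only 5 of 355 lay within the gene, 208 lay in another coding gene, and the median distance was 44.6 kb. At Zkscan17, 184 of 253 lay in another coding gene and the median distance was 54.1 kb, the longest of the 3.

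Zscan10, the pluripotency-associated member, had the most insertions of all members, with a background at percentile 98.3 of all genes. Its level in the 6 unsorted libraries was 3.74 ± 0.55 insertions per 10000 (SD, n = 6). The values were 4.33 and 3.47 in the activator, 3.04 and 3.45 in the repressor and 4.45 and 3.70 in the PTGR unsorted libraries. In sorted cells it was at 1.72 and 2.04 in the activator, 1.35 and 0 in the repressor and 2.46 and 2.05 in the PTGR screen. All 6 sorted libraries thus lay below all 6 unsorted ones. When the genes called in any screen were left out of the library totals, because such genes filled a large share of some sorted libraries, activator sorted replicate 2 stood at 4.05, within the unsorted range, which was then 3.21 to 4.66.

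In terms of counts, activator sorted cells held 6 insertions at Zscan10 where the background predicted 12.1, repressor sorted cells 3 where it predicted 14.2, and PTGR sorted cells 27 where it predicted 45.1. The log2 odds ratios of sorted against background insertions were -1.02 ± 0.59 (SE from counts), -2.24 ± 0.84 and -0.74 ± 0.29. The test used for calling looks for enrichment alone and gave adjusted p-values of 1.00 or just under in all 3 screens. With edgeR, which weighs the spread between the 2 replicates and tests both directions, the PTGR log2 fold change was -0.78 ± 0.38, with an unadjusted p of 0.0418 and an adjusted p of 0.758. Against the spread between replicates, the PTGR difference at Zscan10 thus did not pass the threshold once all genes tested were taken into account. In ratios, predicted counts, limits and summed shares, called genes left out of the totals are those called in the screen in question, while levels per 10000 of single members leave out genes called in any screen. The log2 ratio at Zscan10 was then -0.43 in the activator, -1.14 (exact 95% interval -3.42 to 0.42) in the repressor and -0.68 (-1.30 to -0.11) in the PTGR screen.

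Zscan2 ranked next. Its unsorted libraries held 3.38 ± 1.12 insertions per 10000 (SD, n = 6), with 3.93 and 2.46 in the activator, 2.93 and 3.67 in the repressor and 2.14 and 5.18 in the PTGR screen. The value of 5.18 included a run of closely spaced positions between 14.393 and 14.407 kb from the exon. Whether these were separate insertions was not tested. The sorted libraries held 4.02 and 0.68, 2.25 and 2.63, and 2.13 and 1.88. Activator sorted replicate 1 was above 5 of the 6 unsorted values and replicate 2 below all of them, and only in the PTGR screen did both sorted values lie below the unsorted ones, the nearest at 2.14. The log2 odds ratios were -0.30 ± 0.52, -0.36 ± 0.49 and -0.61 ± 0.31. In the first 2 screens the sign was not settled: with called genes left out of the totals the values were 0.29 and 0.75, and the activator value was 0.39 without sorted replicate 2 and -2.18 without sorted replicate 1.

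Zkscan17, which carries a KRAB domain beside its SCAN domain, held few sorted insertions for its background. The unsorted libraries held 2.21 ± 0.40 insertions per 10000 (SD, n = 6), at 2.79 and 2.26 in the activator, 1.89 and 1.92 in the repressor and 2.57 and 1.85 in the PTGR screen. The sorted libraries held 0.575 and 0, 0 and 0.658, and 1.64 and 1.37. All 6 sorted libraries lay below all 6 unsorted ones, and this was still so when the genes called in any screen were left out of the totals, with sorted values from 0 to 1.79 and unsorted values from 1.93 to 2.91.

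In counts, 1 sorted insertion was found at Zkscan17 in activator cells against 7.32 predicted, 1 in repressor cells against 8.54 and 18 in PTGR cells against 27.2, and the first 2 of these fell short of the 3 sorted insertions needed for the test for calling. The ratio of sorted to background share was 0.137 (exact 95% interval 0.00345 to 0.769), 0.117 (0.00295 to 0.659) and 0.661 (0.385 to 1.07). With called genes left out of the totals, the activator and repressor intervals reached past equality, with log2 ratios of -2.28 (-7.59 to 0.21) and -1.99 (-7.30 to 0.50). Against the spread between replicates, edgeR gave log2 fold changes of -2.62 ± 1.12 with an adjusted p of 0.295, -2.004 ± 1.21 with 0.380 and -0.53 ± 0.44 with 0.997. None passed the threshold of 0.05, which 0.0667%, 1.15% and 0.236% of the genes tested passed in this direction. In the direction of enrichment, where the log2 fold change also had to reach 1, edgeR called 4%, 7.2% and 2.24% of genes, edgeR with the replicate number as a block 3.94%, 6.77% and 2.24%, and DESeq2 2.56%, 4.46% and 0.628%, in each case with 0 members. Few members could be called: edgeR kept only Zscan10, Zscan2 and Zkscan17 after its filter on counts, and Zkscan4 in the activator screen. DESeq2 gave adjusted p-values only to these genes, to Zkscan4 and Zkscan14 in each screen, and to Zkscan5 outside the PTGR screen.

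Libraries that did not overlap were common among genes with many insertions. Of the 2986 genes with at least 100 background insertions, both sorted libraries lay below all 6 unsorted ones for 37.5% of genes among activator, 61.8% among repressor and 12.2% among PTGR libraries. The 4 members in this class, Zscan10, Zscan2, Zkscan17 and Zkscan14, accounted for 3, 3 and 4 such cases. In all 3 screens together the share was 4.32%, and 3 of the 4 members, Zscan10, Zkscan17 and Zkscan14, were among these genes. With the genes called in any screen left out, the shares were 17.2%, 23.8% and 10.4% of 2853 genes, with 1, 3 and 3 of the 4 members. Over the 3 screens together it was 0.806%, and Zkscan17 was the 1 member among these genes. This class of genes was chosen after the values had been seen.

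**Figure D2:**
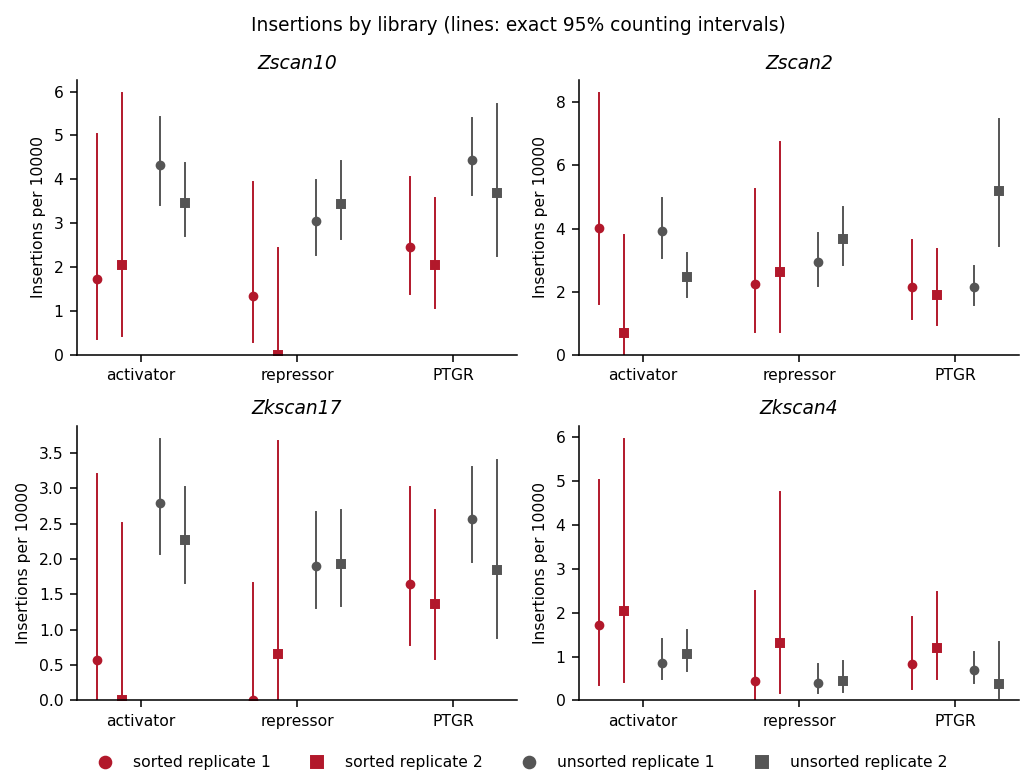
Insertions per 10000 (y axis) at Zscan10, Zscan2, Zkscan17 and Zkscan4 in each of the 12 libraries, grouped by screen along the x axis, with sorted libraries in red, unsorted libraries in grey and lines for exact 95% counting intervals. The sorted values of Zscan10 and Zkscan17 sit below their unsorted values in each screen, and both activator sorted values of Zkscan4, 1.72 and 2.04, sit above its unsorted values.

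In the activator screen, 3 of the 30 members had the 3 sorted insertions needed for a test, and none was called, while 132 of 2842 genes tested (4.64%) were. At an unadjusted p below 0.05 there was 1 member, Zkscan4, against 9.68% of the genes tested. Over all members there were 29 sorted insertions against 46.0 predicted from the background, or 30.6 with the called genes left out of the totals. No insertion was found in 19 members, and 8 had 1 or 2.

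Zkscan4 is a member of the chromosome 13 group and encodes a protein with both a SCAN and a KRAB domain. Of its coding sequence, 71.0% lay downstream of the assigned exon start, so a tagged form would lack the first part. Whether that part holds the SCAN domain was not examined. Zkscan4 held 3 insertions in each activator sorted replicate, where 2.20 were predicted in all. Its sorted levels were 1.72 and 2.04 insertions per 10000, above the 6 unsorted libraries, which held 0.855 and 1.06 in the activator, 0.402 and 0.452 in the repressor and 0.684 and 0.370 in the PTGR screen. Of the 6129 genes with at least 40 background insertions, a class chosen after the values had been seen, 3.33% had both activator sorted libraries above all 6 unsorted ones (8.32% of 5889 with the genes called in any screen left out), and Zkscan4 was the 1 of 8 members among them under either total. The log2 odds ratio was 1.45 ± 0.61, with an unadjusted p of 0.0285 and an adjusted p of 0.357 by the one-sided exact test. It was 0.95 against activator unsorted cells alone, and edgeR gave a log2 fold change of 1.29 ± 0.79 with an adjusted p of 0.647. The 6 insertions lay from 13.4 to 78.2 kb upstream of exon 2, none within the gene, and the position of 1 of them was also listed in activator unsorted replicate 2.

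In the other screens Zkscan4 was not called either. The repressor sorted libraries held 1 and 2 insertions (log2 odds ratio 0.23 ± 0.85, or -0.61 without replicate 2), and the PTGR sorted libraries held 5 and 7 (0.55 ± 0.45, adjusted p 0.641 by the one-sided exact test). With called genes left out of the totals, the log2 ratios in the activator, repressor and PTGR screens were 2.04, 1.33 and 0.61. A call would have needed 12, 12 and 26 sorted insertions at the depth of the 3 screens.

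In the repressor screen, of most interest for members with a KRAB domain, 3 members were tested and none was called, against 192 of 2346 genes (8.18%). No member had an unadjusted p below 0.05, against 14.7% of the genes tested. The 3 tested were Zscan10, Zscan2 and Zkscan4. Of the 11 Zkscan genes, Zkscan4 held 3 sorted insertions, Zkscan5 held 2, Zkscan7 and Zkscan17 held 1 each and the other 7 held none. Zkscan14, with 107 background insertions, had 0 in both repressor sorted libraries where 3.92 were predicted, and 1.83 with the called genes left out of the totals.

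Over all members the repressor sorted libraries held 25 insertions against 53.7 predicted. Called genes took 54.9% and 54.6% of the insertions in the 2 repressor sorted replicates, and with these genes left out of the totals 25.0 insertions were predicted. As shares, the members took 6.74 and 6.58 insertions per 10000 in repressor sorted cells and 12.2 and 13.6 in the unsorted cells of the same screen. Outside the called genes, the shares were 14.9 and 14.5 against 12.7 and 14.1.

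The same calculation left a lower share in the PTGR screen. There the members took 11.2 and 10.9 insertions per 10000 in sorted cells, below all 6 unsorted libraries, which ran from 12.2 to 16.5. Outside the called genes the PTGR values were 11.8 and 11.5 in sorted and 14.7 and 16.6 in unsorted cells. In the activator screen the shares were 11.5 and 6.12 in sorted and 16.5 and 14.1 in unsorted cells, and 14.9 and 11.8 against 16.7 and 14.3 outside the called genes. With 2 libraries against 2, no exact two-sided permutation test can give a p below 0.333, so these shares are given as values.

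**Figure D3:**
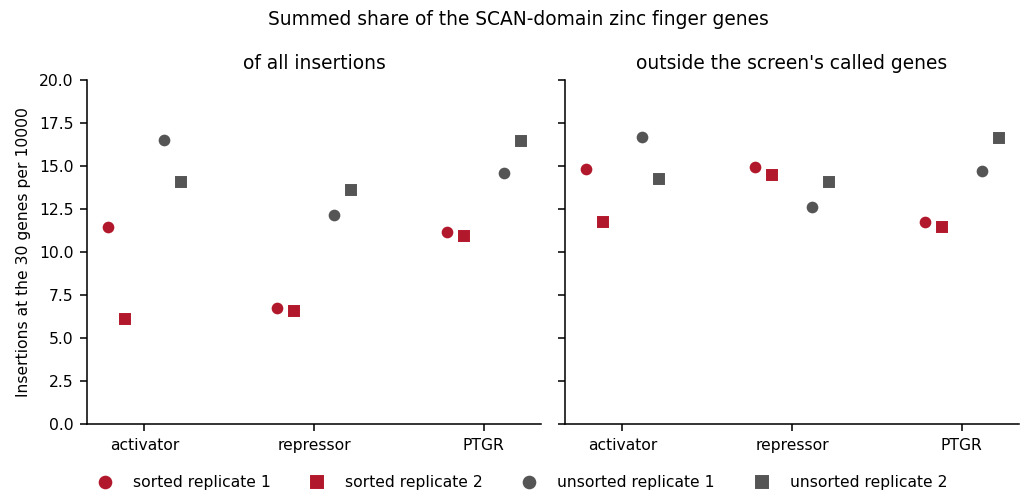
Summed insertions at the 30 genes per 10000 in each library (y axis), by screen along the x axis, on the left as a share of all insertions and on the right as a share of those outside the genes called in that screen, with sorted libraries in red and unsorted ones in grey. The repressor sorted values rise from 6.74 and 6.58 on the left to 14.9 and 14.5 on the right, level with the unsorted libraries.

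In the PTGR screen, the deepest of the 3 in sorted cells, 13 members were tested and none was called, against 62 of 9303 genes (0.666%). At an unadjusted p below 0.05 there were 2, Zkscan2 and Zscan4-ps2, where 10.6% of the genes tested were below that level. Of the 13, Zscan10, Zscan2, Zkscan17 and Zkscan14 had log2 odds ratios below 0 and the other 9 above 0. The median was 0.55, beside 0.14 over all genes tested. Genes with little background enter this test only if their sorted count is high, so the sign among those tested is partly set by the minimum of 3 sorted insertions.

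Zkscan2 is another member with a SCAN and a KRAB domain. With 86.1% of its coding sequence downstream of the assigned exon start, a tagged form would lack the first part. Whether the SCAN domain lies in that part was not examined. Zkscan2 had 3 insertions in PTGR sorted replicate 1 and 0 in replicate 2. Its background was 1 insertion in activator unsorted replicate 2 and 3 in PTGR unsorted replicate 1, with none in the other 4 libraries. The log2 odds ratio was 2.68 ± 1.10, with an unadjusted p of 0.0291 and an adjusted p of 0.381 by the one-sided exact test, and 1.27 against PTGR unsorted cells alone. All 3 insertions came from a single replicate, and the position of 1 of them was also listed in PTGR unsorted replicate 1. In the activator and repressor screens no sorted insertion was found at Zkscan2.

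Zscan4-ps2 had 2 insertions in PTGR sorted replicate 1 and 1 in replicate 2. Its background was 1 and 2 insertions in the activator and 0 and 1 in the repressor unsorted libraries, with none in the PTGR unsorted libraries. The counts being the same as for Zkscan2, the log2 odds ratio of 2.68 ± 1.10 and the adjusted p of 0.381 were the same too. The 3 insertions lay from 22.4 to 54.9 kb upstream of its exon 2, at positions not listed in any other library. No sorted insertion was found in the other 2 screens.

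The Zscan4 cluster lies at chr7:10900740-11614112 and spans 713 kb. Its 8 copies were also counted as a group, because the surroundings of the copies measured share much of their sequence. In the 20 kb upstream of the assigned exon, between 40.8% and 84.8% of all 50-base windows recurred in identical form within 500 kb, for the 7 copies with insertions. For the other 22 members the share was at most 3.40%. The authors kept only reads of high mapping quality, so the count at any 1 copy is uncertain.

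The background held 11 insertions at Zscan4d, 10 at Zscan4e, 8 at Zscan4c, 6 at Zscan4f, 4 at Zscan4-ps2 and 2 each at Zscan4b and Zscan4-ps1. Over the 12 libraries none lay within a copy, and the nearest was 9.83 kb from its exon. In the PTGR sorted libraries the cluster as a whole held 4 and 7 insertions, or 0.656 and 1.20 per 10000, above the 6 unsorted libraries at 0.257 to 0.565. This sum was not tested, and outside the called genes it was 0.693 and 1.26 against 0.259 to 0.585. Zscan4c with 1 and 2 insertions and Zscan4f with 0 and 3 made up 6 of these 11, with log2 odds ratios of 1.68 ± 0.98 and 2.10 ± 1.02 and adjusted p-values of 0.551 and 0.477 by the one-sided exact test. In the activator sorted libraries the cluster held 1 and 0 insertions, and in the repressor sorted libraries 1 and 0. Among single genes with at least 40 background insertions, both PTGR sorted libraries lay above all 6 unsorted ones for 3.95% (4.23% with the genes called in any screen left out), and for none of the 8 members. In the repressor screen the shares were 3.36% and 11.6%, with 0 members and, under the second kind of total, Zkscan5.

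Of the remaining members tested in the PTGR screen, Zscan26 held 1 and 5 insertions in the sorted replicates (0.25 ± 0.63), Zscan20 held 1 and 4 (0.10 ± 0.68), Zkscan16 held 2 and 2 (0.64 ± 0.78) and Zscan18 held 3 and 0 (0.98 ± 0.92). Zkscan14 held 5 and 2, at a log2 odds ratio of -0.84 ± 0.56. Zkscan5, with 66 background insertions, had 1 and 1 where 7.72 were predicted and fell short of the minimum for a test.

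The counts bounded how large an enrichment of insertions, in and out of frame together, could have been missed. The upper limit of the exact 95% interval of the sorted-to-background ratio was set beside the median log2 odds ratio of the called genes, with members at 0 sorted insertions taken at 3. In the activator screen the limit lay below that median of 5.06 for 26 of the 29 members reached, or 23 with the called genes left out of the totals. In the repressor screen it lay below the median of 4.30 for 22, or 14 with the called genes left out, and in the PTGR screen below the median of 2.70 for 18, or 17. The medians came from all insertions in either case, so the second counts set unlike totals side by side.

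A 2-fold enrichment was a stricter measure. The limit lay below it for Zkscan17 and Zscan10 in all 3 screens under both kinds of total, and for Zkscan14 in the repressor and PTGR screens. For Zscan2, Zkscan3 and Zkscan5 it did so under both kinds of total in the PTGR screen. At the other end, Zkscan2, Zscan12, Zscan29, Zscan4b, Zscan4-ps1 and Zscan4-ps2 had limits above the median of the called genes in all 3 screens under the totals without called genes. That median was still from all insertions. With all insertions on both sides, only Zscan4b and Zscan4-ps1 had such limits in all 3 screens. Between 3 and 32 sorted insertions would have been needed for a call at a member in the repressor screen, and between 6 and 91 in the PTGR screen.

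**Figure D4:**
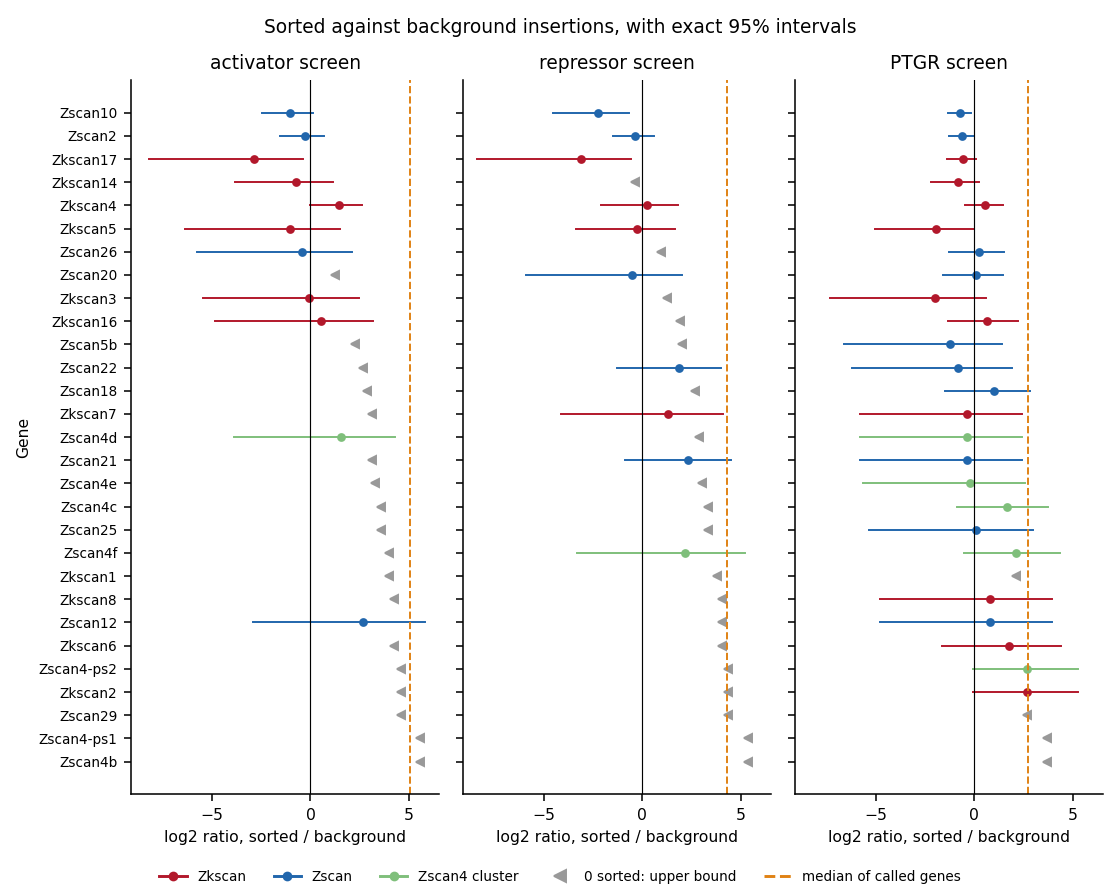
Log2 ratio of sorted to background share (x axis) for the 29 members with background insertions, ordered by background from most at the top (y axis), in the 3 screens. Points with lines are ratios with exact 95% intervals, grey triangles are upper bounds for members with 0 sorted insertions, and the dashed line is the median log2 odds ratio of the called genes. Intervals widen towards the bottom, where bounds reach the median of the called genes.

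The difference between screens was tested as an interaction with edgeR. Between the repressor and activator screens, which use the same TetR tag, 5 members had enough counts and 0 differed at an adjusted p below 0.05, against 218 of 3741 genes (5.83%). The interaction log2 fold changes, repressor minus activator, were -0.61 ± 1.07 for Zscan10, 0.24 ± 0.78 for Zscan2, 0.53 ± 2.18 for Zkscan17 and 0.29 ± 1.22 for Zkscan4, with adjusted p-values from 0.862 to 0.962. For Zkscan14, with 0 sorted insertions in the repressor screen, no fold is given (adjusted p 0.594). Between the repressor and PTGR screens, 3 members had enough counts and 0 differed, against 182 of 2156 genes (8.44%), with differences of -0.31 ± 0.93 for Zscan10, 0.90 ± 0.71 for Zscan2 and -1.35 ± 1.396 for Zkscan17. No member had an unadjusted p below 0.05 in either comparison. The standard errors were wide enough to leave differences of several-fold in either direction undetected.

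Among the KRAB corepressor genes, Trim28, which KRAB domains bind directly, held 331 and 302 insertions in the repressor sorted libraries against 676 in the background, a log2 odds ratio of 4.70 ± 0.08. The H3K9 methyltransferase gene Setdb1 held 19 and 18 against 25 (5.34 ± 0.37), and its partner Atf7ip held 284 and 276 against 766 (4.34 ± 0.08). The heterochromatin protein genes Cbx1, Cbx3 and Cbx5, the chromatin remodelling genes Chd3, Chd4 and Smarcad1, and Morc3 were called as well, with log2 odds ratios from 3.37 ± 0.10 for Smarcad1 to 5.94 ± 0.29 for Cbx3. Trim28 was also called in the PTGR screen (1.97 ± 0.10), and none of the 10 in the activator screen. Trim28 was called for strand-reversed insertions as well, at log2 odds ratios of 2.02 ± 0.20 in the repressor and 1.98 ± 0.12 in the PTGR screen, the latter about the size of its sense value. The corepressor genes had a median of 140.5 background insertions, against 11 for the members. Among the members, 9 had more than Setdb1 and none had more than Trim28, Atf7ip or Smarcad1, and the part of background in the lists' calls was not tested.

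Of 364 genes named Zfp and a number, 103 were tested in the repressor screen and 51 (49.5%) were called, against 8.18% of all genes tested. The called Zfp genes had a median log2 odds ratio of 4.75 and background counts from 3 to 761, of which 11 were under 16. These were Zfp1, Zfp108, Zfp128, Zfp248, Zfp273, Zfp383, Zfp423, Zfp429, Zfp451, Zfp454, Zfp455, Zfp456, Zfp459, Zfp472, Zfp493, Zfp566, Zfp568, Zfp57, Zfp609, Zfp65, Zfp667, Zfp708, Zfp709, Zfp72, Zfp74, Zfp777, Zfp799, Zfp808, Zfp809, Zfp811, Zfp825, Zfp839, Zfp85, Zfp870, Zfp872, Zfp873, Zfp93, Zfp930, Zfp932, Zfp934, Zfp936, Zfp941, Zfp950, Zfp952, Zfp953, Zfp960, Zfp961, Zfp963, Zfp97, Zfp975 and Zfp984. In the activator screen 3 of 52 tested were called, Zfp335, Zfp407 and Zfp574, and in the PTGR screen 1 of 185, Zfp106. Of the 41 Zbtb genes, Zbtb11 and Zbtb32 were called in the activator screen, Zbtb3 and Zbtb45 in the repressor screen and Zbtb45 in the PTGR screen. Zbtb45 had log2 odds ratios of 1.81 and 2.00 there. For strand-reversed insertions, 15 of 49 Zfp genes tested (30.6%) were called in the repressor screen, against 5.61% of all genes tested. So were 2 of 11 Zbtb genes tested. The study flags Zfp74, Zfp85, Zfp472, Zfp493, Zfp568, Zfp799 and Zbtb45 for reversed integrations in that screen, and Zbtb45 in the PTGR screen too. Only 3 members were tested in the repressor screen, and the difference between the lists was not tested.

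The other SCAN-domain genes on the list used, whose names do not begin with Zscan or Zkscan, also gave no call. This list came from general knowledge of the family and was not checked against protein sequences. Most of its genes are also among those named Zfp and a number. Of the 17 on the list that the deposited gene tables hold, 1, 3 and 9 were tested in the activator, repressor and PTGR screens and none was called. Their 902 background insertions included 300 at Scand1, which encodes a SCAN domain without zinc fingers and which held 2 and 4, 2 and 5, and 6 and 20 sorted insertions in the 3 screens. The log2 odds ratios of Scand1 were -0.65 ± 0.59, -0.65 ± 0.55 and -0.43 ± 0.29. Peg3, an imprinted gene expressed from the paternal allele, held 11 and 11 in the PTGR sorted libraries against 114 in the background (0.72 ± 0.34, adjusted p 0.381 by the one-sided exact test).

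When the strand of each insertion was reversed before it was assigned to an exon, which serves as a check because a cassette in that direction cannot be spliced to the gene, 1 member was called. Zscan2 held 25 and 23 reversed insertions in the activator sorted libraries, or 15.1 and 17.3 per 10000, while the 6 unsorted libraries ran from 2.23 to 4.71. Its log2 odds ratio of 2.06 ± 0.22 had an adjusted p of 2.26e-13 in the one-sided exact test, where 85 of 2706 genes (3.14%) were called. In the repressor and PTGR screens no member was called for reversed insertions, against 125 of 2229 genes (5.61%) and 46 of 9204 (0.5%). There Zscan2 held 5 and 1 and 18 and 8 reversed sorted insertions.

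Those reversed insertions lay far from Zscan2. Of the 48 in the activator sorted libraries, 39 (81.3%) were over 100 kb from the assigned exon, against 56 of 392 (14.3%) in the background, and the medians were 174 and 44.8 kb. In the sense assignment, 38 of the same 48 positions belonged to Crtc3, a CREB-regulated transcription coactivator gene on the opposite strand, and 10 to Iqgap1. In the background 16 of 392 belonged to Crtc3 and 376 to Iqgap1. Crtc3 was itself called in the activator screen for sense insertions, with 27 and 28 in the sorted libraries against 21 in the background and a log2 odds ratio of 6.38 ± 0.37. The sense insertions of Zscan2 in the activator sorted libraries numbered 7 and 1, all within 89.4 kb of its exon. With the distance limit at 50 kb, Zscan2 was no longer called for reversed insertions.

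**Figure D5:**
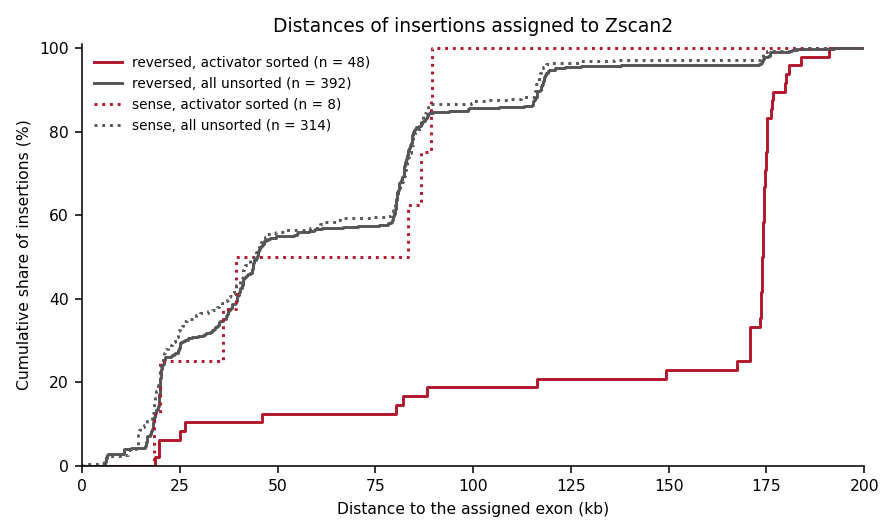
Cumulative share of the insertions assigned to Zscan2 (y axis, percent) by their distance in kb to the assigned exon (x axis), for reversed (solid) and sense (dotted) assignment in activator sorted (red) and all unsorted (grey) libraries. Of the reversed activator sorted insertions 12.5% lie within 50 kb, against 55.1% of reversed and 56.1% of sense background insertions.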

How the data were processed

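The data were cassette positions in genomic DNA from 12 libraries. Per the methods of the study, the authors trimmed reads with Trim Galore (0.6.0 in the submitters' processing notes), aligned first mates to mm10 with Bowtie 2, removed duplicates and reads of mapping quality 30 or less with SAMtools (1.9), and paired every insertion with the closest exon downstream of it in a coding GENCODE transcript, first exons being left out. The deposited lists give position, exon and distance, with strand as mapped and reversed, and no read numbers. The deposited gene tables hold the authors' pooled insertion counts for each gene. They also hold log2 odds ratios, adjusted p-values and hit calls, which were not used. Gene names and IDs came from these tables. Counts made here from the lists equalled the deposited background counts for 20224 of 20409 genes, and the deposited sorted counts for 20407, 20400 and 16180 genes in the activator, repressor and PTGR screens.

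Each position was counted at most 1 time per library if it lay within 200 kb of its exon. This removed repeated lines, which made up 50.0% of both repressor unsorted lists and 12.8% of PTGR sorted replicate 2. The 2 sorted libraries of a screen were added together and set against the 6 unsorted libraries with Fisher's exact test, one-sided, for every gene (scipy 1.17.1), adjusted by the Benjamini-Hochberg method over all genes with at least 3 sorted insertions. A call required a log2 odds ratio of 1 or more and an adjusted p below 0.001. Differences between screens were tested with edgeR 4.0.16 (quasi-likelihood, TMM, filterByExpr, R 4.3.3), which with DESeq2 1.42.0 also gave alternatives. Ratios carry exact 95% intervals, and where a count was 0 the limit was computed for 3. The exact test and the edgeR fit of sorted against unsorted cells were tested on simulated data. The DESeq2 fits, the interaction fits and the fits with the replicate block were not.

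Gene positions came from GENCODE vM21, the release at hand, and sequences from the RefSeq copy of GRCm38, read with samtools 1.23.1. Every member is named. Values in every library are given for members called in a screen, with an unadjusted p below 0.05, with at least 10 sorted insertions in a screen or among the 3 with the most background, and of the other lists the called genes are named. The members, gene lists and rules were chosen with earlier results of these data known. No per-sample column was left unassigned.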

Additional observations from a re-analysis of the deposited data

Results flagged for a closer look

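Zscan2 stood out in the reversed assignment, which lies outside the main measurement. Its log2 odds ratio for reversed insertions in the activator screen was 2.06, with 25 and 23 sorted insertions, above the level in all 6 unsorted libraries. Of these 48 positions, 38 were assigned to Crtc3 in the sense direction. Among the 6 members described in every library, no unsorted library lay far enough from the other 5 to be marked, at a criterion that chance meets in about 1 of 20 groups.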

How the results depend on the processing

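No member was called in any screen under any of 23 alternatives per screen, which covered the background of the same screen, every listed line, merged or unshared positions, limits of 50 and 20 kb, minima of 1 and 10 sorted insertions, an adjusted p below 0.05, edgeR, DESeq2, and each sorted or unsorted library left out. With a minimum of 10 in the activator and repressor screens, and within 20 kb in the repressor screen, 0 members were tested, so none could be called, and outside the genes called in the activator screen 0 genes at all passed with the totals without them. The replicate numbers were not shown to pair the samples (correlations of deviations 0.052, 0.006 and 0.261), and edgeR called 0 members with the replicate block and 0 without it, in the screens and in both interactions. The 4 interaction fits that each leave out an unsorted library kept no member after the filter and gave no value; a lone library left in an arm was assumed to vary like the others. Zscan2 changed sign in the activator screen with the called genes left out of the totals (0.29, a choice made after seeing the data), with edgeR without the replicate block (0.012) and from -2.18 to 0.39 with 1 library left out, and in the repressor screen with the called genes left out (0.75), with edgeR (0.34) and with the replicate block (0.36). Zkscan4 in the repressor screen ran from -0.61 to 0.94 with 1 library left out. For reversed insertions, 0 members were called within 50 kb in the activator screen. Called Zbtb genes fell to 1 in the activator screen with its own background or a minimum of 1, and to 1 in the repressor screen with a minimum of 10. Called Zfp genes in the PTGR screen were 0 with its own background, merged positions, 20 kb or a minimum of 1, and 4 at an adjusted p below 0.05. With 1 library left out, called Zbtb genes ran from 1 to 2 in the activator and 0 to 3 in the repressor screen, and called Zfp genes from 1 to 3 in the activator and 0 to 2 in the PTGR screen. Over the same alternatives, the number of all genes called ran from 0 to 158 in the activator, 23 to 250 in the repressor and 1 to 121 in the PTGR screen. The causes were not tested. With a median background of 11, most members allow only coarse limits.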
